A study of Rubus occidentalis with 14 samples.

Results

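A group of 100 genes of black raspberry (Rubus occidentalis), out of 33253 gene identifiers measured in the fruit, stood higher in stages 3 and 4 than in stages 1, 2 and 5. They were chosen on normalised read counts, which are read counts divided by 1 size factor per library. A gene had to average at least 100 normalised counts in stage 3 and in stage 4, which 10545 genes did. Its score was the lower of its stage 3 and stage 4 levels minus the highest of its stage 1, 2 and 5 levels, each level being the log2 of the stage mean plus 10. A score above 0.3 was reached by 667 genes, and 434 of these also stood more than 0.7 higher in stage 4 than in stage 5 on that scale. The 100 highest scores were taken. The condition on stage 5 removed none of them, since the same 100 genes came first without it. All 100 were among the 19234 genes expressed highly enough to be tested.

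The study followed gene activity through fruit ripening in stages numbered 1 to 5. Stages 1, 2, 3 and 5 had 3 poly(A) RNA libraries each and stage 4 had 2, giving 14 libraries. All groups were fruit of 1 genotype, the breeding selection NC 349, grown at a research station, and differed in stage and in the codes of their titles, described below. The labels call the libraries biological replicates without saying how plants or fruits were divided among them, so the p-values cover only the spread among these libraries, and some of that spread may be technical.

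The fruit of a raspberry is a cluster of drupelets, each a fleshy wall around a seed. As it ripens it loses chlorophyll, gains anthocyanin pigment, sweetens, and softens as enzymes loosen its cell walls. A gene whose transcript is most abundant partway through ripening and lower in the final stage follows neither the steady rise of many late ripening genes nor the loss typical of genes of young green fruit. Gene names are not paired with the identifiers here, so no role is given to any gene below, and the lists of pigment, cell wall, sugar, hormone and seed genes drawn up for the tissue could not be matched. In bulk fruit, fewer cells of a type and less RNA per cell cannot be told apart.

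A pair of features of the libraries bears on these genes. Stage 2 replicate 2 stood apart from the other libraries of its stage, as described below, and the results that rest on it are also given without it. The titles of stage 3 replicates 2 and 3 and of stage 4 replicate 2 carry codes that open with TH, while those of the other 11 libraries open with YH. The letters therefore occur together only within stages 3 and 4, the stages where the genes were high. Recovered totals ran from 7576338 to 39938265 reads per library.

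The profile was of the following kind in all the genes, as the rule requires. Over the 100 genes the median of the stage means was 158, 251, 1061, 1259 and 379.6 normalised counts for stages 1 to 5. Together they took 0.348% ± 0.0342 of all normalised counts of a stage 1 library (SD, n = 3). For stage 2 libraries that figure was 1.02% ± 0.333 (n = 3) and for stage 3 libraries 2.31% ± 0.111 (n = 3). It was 2.21% ± 0.0154 for stage 4 libraries (n = 2) and 0.719% ± 0.109 for those of stage 5 (n = 3). A single gene, Ro02_G35470, made up 46.0% of the group's sum in stage 4. Without it the libraries of stage 1 gave 0.294% to 0.34%, those of stage 2 gave 0.37% to 0.684% and those of stage 3 gave 1.10% to 1.32%. Stage 4 libraries then gave 1.15% to 1.24% and stage 5 libraries 0.341% to 0.404%. For the rest of the group the shares of stages 1 and 5 thus lay next to each other. The totals behind the shares differed, however. They were 11223354 to 11645273 normalised counts in stage 1 libraries and 27313419 to 27937080 in stage 5 libraries. Similar shares therefore do not mean similar normalised counts.

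**Figure D1:**
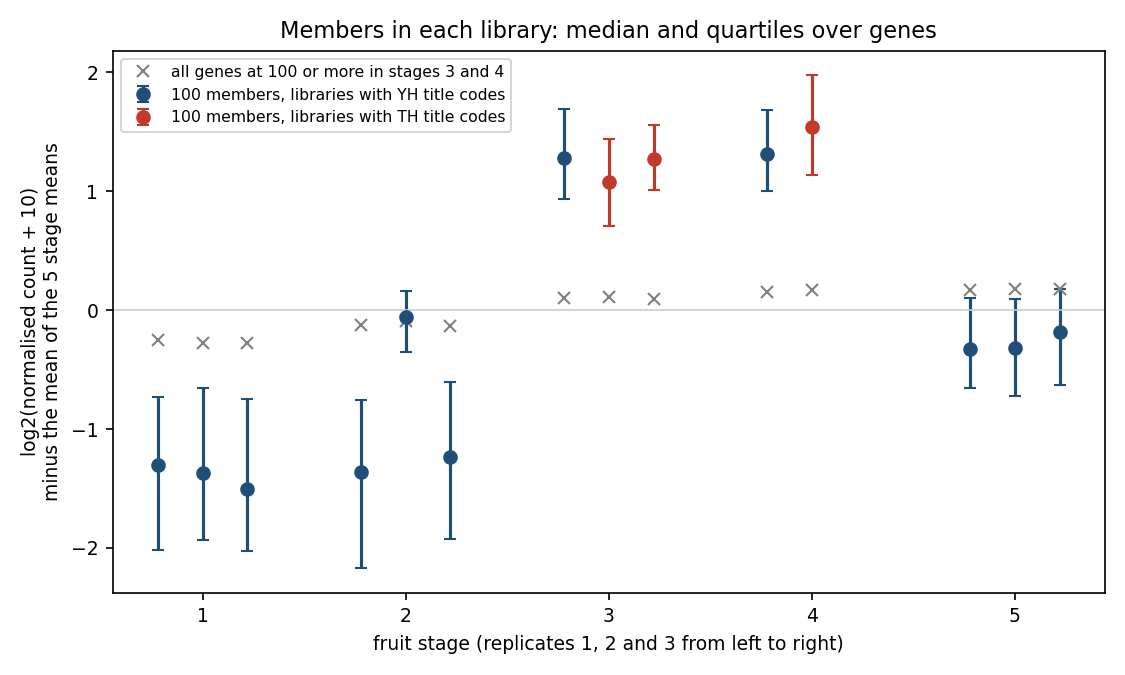
Level of the 100 genes in each library, as log2 (normalised count + 10) minus the mean of the gene's 5 stage means, with the median (point) and quartiles (bars) over genes; crosses give the median of the 10545 genes at 100 or more normalised counts in stages 3 and 4. The medians of the 5 stage 3 and 4 libraries lie between 1.07 and 1.54, that of stage 2 replicate 2 at -0.05 and those of the other stage 2 libraries at -1.36 and -1.23.

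The scores ran from 0.98 to 2.50 with a median of 1.24, a 2.36-fold gap between the lower of the high stages and the highest of the others. The highest score belonged to Ro02_G25563. It had 35.4, 28.2 and 33.1 normalised counts in the stage 1 libraries and 24.0, 281 and 26.1 in the stage 2 libraries. In stage 3 it had 962, 405 and 875, in stage 4 583 and 760.5, and in stage 5 122, 47.0 and 133. All 5 libraries of stages 3 and 4 lay above the other 9, and within stage 2 replicate 2 stood far above its stage mates.

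Ro01_G00886 had the next highest score at a higher level. Its stage 1 libraries held 653, 793 and 897 normalised counts and its stage 2 libraries 319, 1084 and 421. The stage 3 libraries held 2682, 6002 and 3749.7, the stage 4 libraries 6848 and 6248, and the stage 5 libraries 610.1, 774 and 567. Its stage 5 libraries overlapped those of stage 1, and the log2 change of -0.26 ± 0.37 (SE) between them did not pass the test (limma adjusted p 0.529).

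The most abundant of the group, Ro02_G35470, differed from both in being well expressed already in stage 2. It held 2833, 4326 and 1793 normalised counts in stage 1 and 51844, 102414 and 66097 in stage 2. Stage 3 libraries held 192304, 247932 and 226262, stage 4 libraries 252149 and 242668, and stage 5 libraries 75129, 115865 and 100003. The gene next in abundance, Ro02_G10418, held 7126, 4191 and 1742 in stage 1 and 6631, 13975 and 5526 in stage 2. It held 55887, 39860.2 and 43479 in stage 3, 45249 and 57352 in stage 4, and 18309.8, 23672 and 21232 in stage 5. Both genes kept well over their stage 1 level in stage 5.

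**Figure D2:**
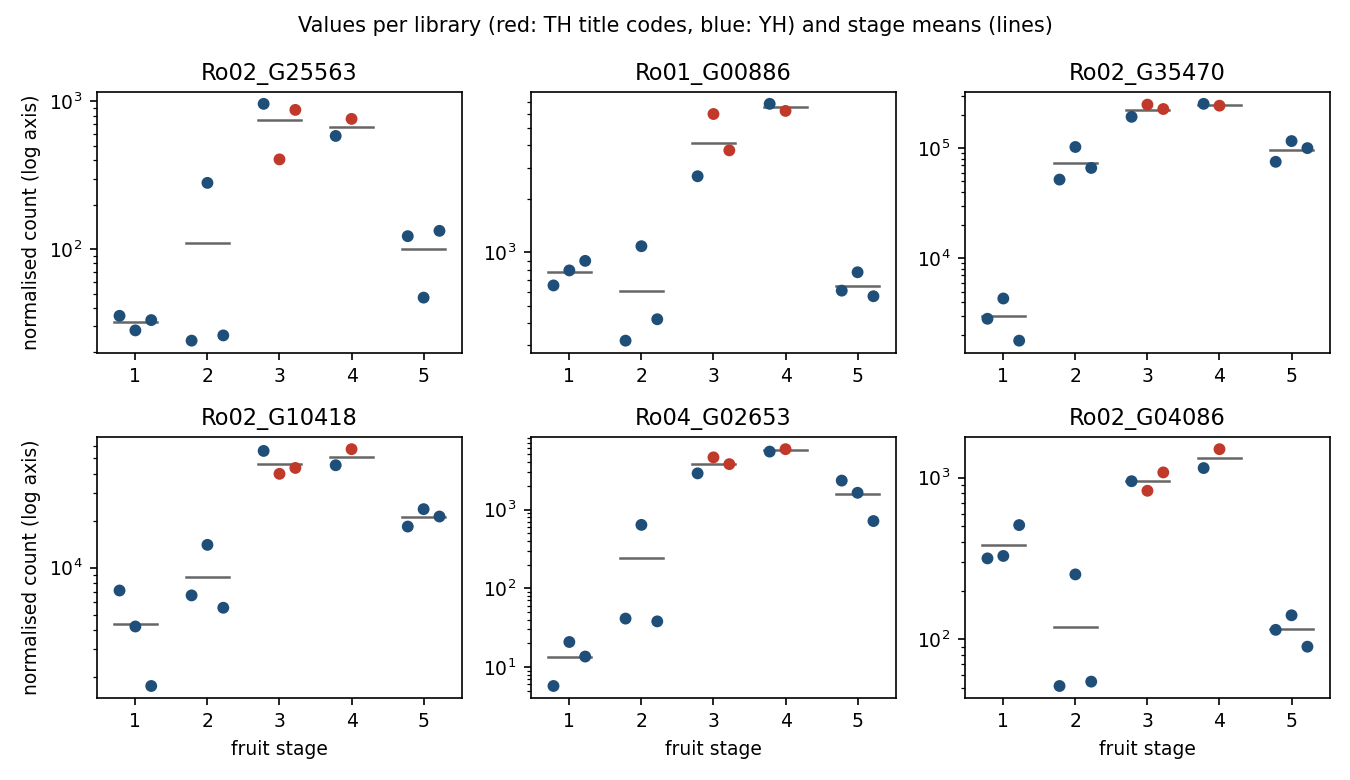
Normalised counts on a log axis in each of the 14 libraries for 6 of the genes, by stage, with stage means as lines; red points are libraries with TH title codes and blue points those with YH codes. In each of the 6 genes every point of stages 3 and 4 lies above every point of stages 1, 2 and 5, and replicate 2 is the highest of the stage 2 points.

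The edge of the group was gradual. The gene just inside, Ro03_G13074, averaged 914, 1400.5, 4763, 5549.9 and 2408 normalised counts in stages 1 to 5. The gene just outside, Ro03_G05743, averaged 817, 551, 2537, 2238 and 1131. Both scores round to 0.98, and 334 more genes met every condition with lower scores.

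The lowest count of any member in a stage 3 or 4 library was 26 reads. A single value of 0 occurred among the members, that of Ro05_G14850 in stage 2 replicate 1.

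How completely the genes were off outside their peak varied. Relative to the higher of the stage 3 and stage 4 means, the stage 1 mean was at a median of 12.9% (range 0.208% to 48.0%). The stage 2 mean was at a median of 20.7% (2.19% to 46.2%) and the stage 5 mean at 29.5% (6.63% to 47.4%). A stage 1 mean under 10% of the peak was found for 39 genes, a stage 2 mean that low for 13 and a stage 5 mean that low for 5. The highest of the 3 lower stages was stage 5 for 69 genes, stage 2 for 18 and stage 1 for 13. The stage 2 means used here include stage 2 replicate 2, and some of these places rest on it. Ro02_G25563, nearest in stage 2, had 24.0, 281 and 26.1 normalised counts there against a stage 5 mean of 101. How many genes would change place without this library was not counted.

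**Figure D3:**
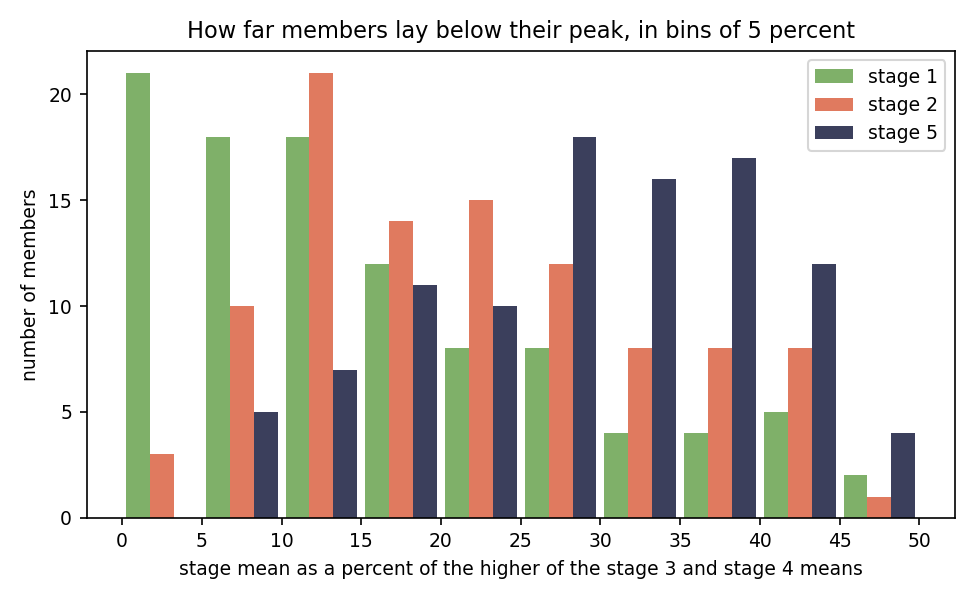
Number of the 100 genes by stage mean as a percent of the higher of the stage 3 and stage 4 means, in bins of 5 percent. Stage 1 has 21 genes in the lowest bin, stage 2 has 3 and stage 5 has 0, and stage 5 has 18 in the bin from 25% to 30%.

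These 3 kinds, set with stage 2 replicate 2 included, differed in level as well as shape. For the 69 genes nearest in stage 5, the medians of the stage means were 155, 307, 1519.7, 1628 and 594 normalised counts in stages 1 to 5. For the 18 nearest in stage 2 they were 100.3, 182, 677, 681 and 166. For the 13 nearest in stage 1 they were 231, 119.5, 557, 555 and 115. By definition none of these 13 had a higher mean in stage 2 than in stage 1. Limma called 2 of them lower there, where 24.3% of all genes tested were called lower.

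In 91 of the 100 genes every stage 3 and stage 4 library lay above every library of stages 1, 2 and 5. Over all genes tested 3.23% did so. Since the rule chose genes for this contrast, the count describes the group and nothing is read from it. In the other 9 genes the overlap came from stage 5 replicate 3 in 5, stage 2 replicate 2 in 3 and stage 1 replicate 1 in 1, as the highest of the 9 libraries. On the other side it came in each from stage 3 replicate 2, without which all 100 were separated. With the libraries scaled to equal total reads, 60 of the 100 were separated (2.43% of all genes tested), and the rule chose 52 of the 100 again. Under that scaling 97 of the 100 still had a score above 0, with a median of 1.08.

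The rule used the YH libraries too, so their values are a description. In all 100 genes the YH libraries of stages 3 and 4, which are stage 3 replicate 1 and stage 4 replicate 1, both lay above all 9 libraries of the other stages, as they did in 5.3% of all genes tested. With only the 11 YH libraries the rule chose 78 of the 100 genes again, and the score of every member stayed above 0.3, with a median of 1.15. Within stages 3 and 4, TH libraries did not differ detectably from YH libraries in any of the 100 genes or in any of the 19234 tested (0% called by limma). By edgeR and DESeq2 none of the 100 were called either, and 0 of the 100 had an unadjusted p below 0.05 by limma. The median log2 difference of TH against YH libraries was 0.03 in the group and 0.0019 in all genes tested. With replicate numbers as a block these medians were -0.32 and -0.03, and none of the 100 were called. Above 0 were 20 of the 100 genes, against 57 without the block. The block used the replicate numbers of the titles. The library names number the stage 4 libraries otherwise, so the block's pairing of them is uncertain. The libraries did not overlap in 6 genes that were higher in TH libraries (5.79% of all genes tested) and 1 that was lower (6.88%). The largest differences in the group, named by size because none passed, belonged to Ro04_G20692 and Ro02_G36049. Ro04_G20692 had 328, 359 and 330.1 normalised counts in the TH libraries, against 175 and 309.7 in the YH libraries (log2 difference 0.59 ± 0.77 SE). Ro02_G36049 had 164, 565 and 429 in the TH libraries, against 1088 and 368 in the YH libraries (-0.95 ± 0.88).

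Choosing the genes anew without 1 library at a time gave values in libraries that took no part in the choice. The 100 genes chosen without a given library included 87 to 98 of the members. A stage 3 or 4 library left out in this way lay above the highest of the stage 1, 2 and 5 means in 98 to 100 of the 100 chosen genes, against 20.6% to 27.4% of all genes at the level the rule asks for. A stage 1, 2 or 5 library left out lay below the lower of the stage 3 and stage 4 means in 99 or 100 of the chosen genes, against 40.3% to 62.4% of all such genes. Replicates 2 and 3 of stages 1, 2, 3 and 5 share a title code within each stage, so a left-out library often had a mate of the same code among those used.

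The rise into the peak and the fall from it are part of the rule and are given as a description. In stage 3, all 100 genes were higher than in stage 2 with an adjusted p below 0.05 by limma, where 23.4% of all genes tested were called higher. The median log2 change was 2.21, and 2.59 without stage 2 replicate 2. In stage 5, 76 were called lower than in stage 4 and 0 higher, where 10.8% of all genes were called lower and 7.66% higher, with a median change of -1.68. That count was 44 without stage 4 replicate 2, where the remaining library is taken to vary as much as those of other stages. Fold changes here are on the log2 (normalised count + 1) scale, which understates changes of genes with low values.

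The rule treats stages 1 and 2 alike, so it does not set which of them is higher. Its minimum level in stages 3 and 4 was not asked of all genes tested, which stand beside the group. In stage 2, 31 of the 100 genes rose relative to stage 1 and 5 fell, where 18.6% of all genes tested were called higher and 24.3% lower, 42.8% together. The libraries did not overlap in 33 genes that were higher (24.1% of all genes tested) and 3 that were lower (33.2%). The median log2 change was 0.49 in the group and -0.06 in all genes tested. With equal total reads 26 rose (12.2% of all genes tested) and 13 fell (33.7%), with medians of 0.24 in the group and -0.31 in all genes. The largest rise was that of Ro02_G35470, given by library above (log2 change 4.65 ± 0.35 SE, limma adjusted p 3.15e-07). Ro01_G30176 followed, with 27.0, 519.7 and 61.7 normalised counts in stage 2 against 16.3, 2.97 and 5.30 in stage 1 (3.68 ± 0.80, adjusted p 0.00207). Its lowest stage 2 library lay above its highest stage 1 library, and its change was 2.47 when stage 2 replicate 2 was left out, 4.28 when stage 1 replicate 1 was and 4.58 when stage 2 replicate 1 was.

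Ro06_G24984 fell to 27.9, 117 and 36.3 normalised counts in stage 2, against 184, 239 and 209.9 in stage 1 (log2 change -2.07 ± 0.62 SE, limma adjusted p 0.0157). It was no longer called without stage 1 replicate 2 (adjusted p 0.0503), stage 2 replicate 1 (0.0683) or stage 2 replicate 3 (0.0571), and its change was -2.68 without stage 2 replicate 2. Ro02_G04086 had 51.5, 252 and 54.8 in stage 2 against 317, 328 and 509 in stage 1 (-2.06 ± 0.46, adjusted p 0.00263), and -2.80 without stage 2 replicate 2. The count of 5 falling genes was 1 when either replicate 1 or replicate 3 of stage 2 was left out, and 3 when either replicate 1 or replicate 3 of stage 1 was. Of all genes tested, 20.9% to 22.4% were called lower in these fits. In both falling genes stage 2 replicates 1 and 3 were far lower than replicate 2, and no stage 2 library reached the stage 1 range.

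Stage 2 replicate 2 was the highest of its stage in 97 of the 100 genes, where 36.1% of all genes tested were. It was at least 2-fold above the higher of replicates 1 and 3 in 52 of the genes, against 5.65% of all genes tested. Its level over the mean of replicates 1 and 3 had a median of 2.13 in the group (range 0.725 to 112) and of 0.991 in the 19072 tested genes with a value. On a log2 scale it lay at a median of 47.5% of the way from the mean of its stage mates to stage 3. Genes outside the group that also rose into stage 3 shared the feature in part. Of 1536 other genes at the same minimum level, called higher in stage 3 than stage 2 and at least 1 higher on the log2 scale, 91.9% had replicate 2 highest, and in 27.7% it was at least 2-fold above both.

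The sign of the median change from stage 1 to stage 2 rests on this library. Without it, 28 of the 100 genes were called higher in stage 2 (15.3% of all genes tested) and 15 lower (21.7%). The median log2 change was then -0.10 in the group and -0.06 in all genes tested. With stage 2 replicate 2, the stage 2 mean was below the stage 1 mean in 25 genes, and without it in 54. Stage 2 replicate 2 was also 1 of the shallower libraries, with 8601064 reads, and shared its title code with replicate 3, which did not show the feature. The part of depth in the result was not tested.

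**Figure D4:**
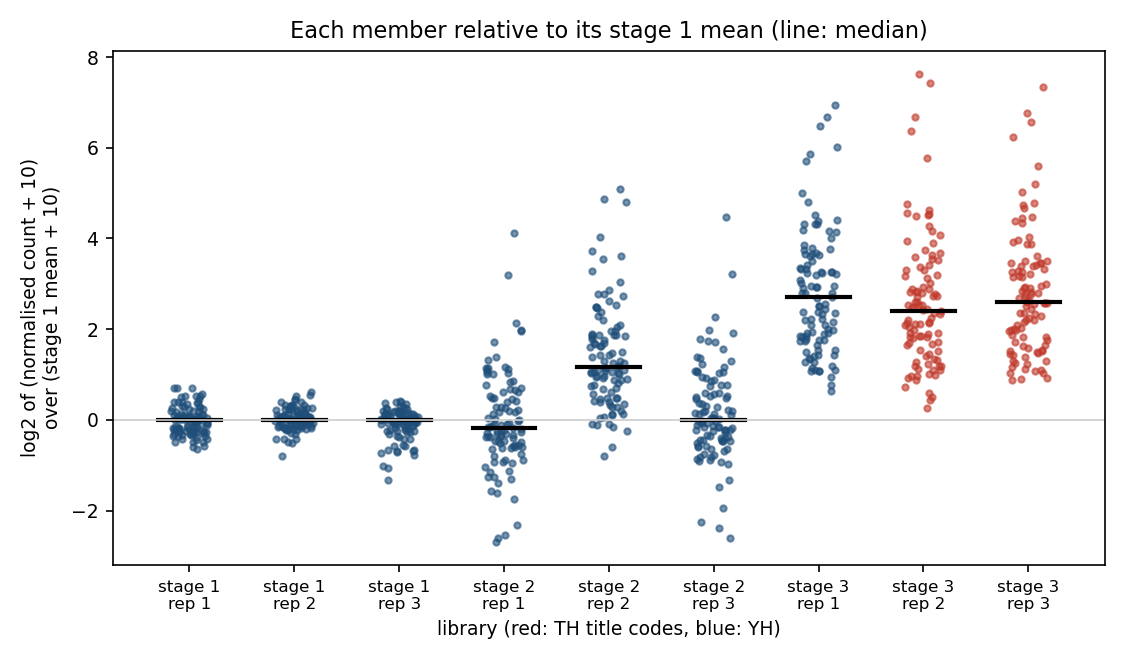
Each of the 100 genes in the libraries of stages 1, 2 and 3, as the log2 of (normalised count + 10) over (stage 1 mean + 10), with the median as a line. The medians of stage 2 replicates 1, 2 and 3 are -0.17, 1.17 and 0.0030, and those of the stage 3 libraries are 2.41 to 2.70.

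Stages 3 and 4 were not told apart by the test in any of the genes. The rule takes the lower of the pair, so it does not set their order. By limma 0 of the 100 passed, as did 0 by edgeR and 0 by DESeq2, and 2 had an unadjusted p below 0.05. In all genes tested, 0.0156% were called by limma, 0.0104% by edgeR and 1.63% by DESeq2. DESeq2 gave no adjusted p for 3 of the 100 and for 4882 of all genes tested. The stage 4 mean was the higher in 76 genes and the stage 3 mean in 24, with a median log2 change of 0.22 in the group and 0 in all genes. The share of all genes with a higher stage 4 mean is not given here. With equal total reads these medians were -0.01 and -0.21. The log2 change was then above 0 in 49 of the 100 genes, against 79 as deposited. Without stage 4 replicate 2 it was above 0 in 65, with a group median of 0.13. Without stage 4 replicate 1 it was above 0 in 80, with a group median of 0.37. Both stage 4 libraries exceeded all those of stage 3 in 26 genes (17.2% of all genes tested) and lay under them in 3 (14.7%).

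The largest differences between these stages, named by size because none passed, came with wide replicate spread. Ro02_G10933 had 227 and 570.1 normalised counts in stage 4, against 209, 82.0 and 163 in stage 3 (log2 change 1.35 ± 1.16 SE). Ro07_G25154 had 276 and 609 in stage 4, against 279.6, 108 and 184 in stage 3 (1.21 ± 0.73). The stages overlapped in Ro07_G25154 and nearly met in Ro02_G10933, and in both genes stage 4 replicate 2 was the highest and stage 3 replicate 2 the lowest. In the other direction, Ro06_G13205 had 203 and 103 in stage 4, against 294, 282 and 259 in stage 3 (-0.94 ± 0.36). Ro01_G29718 had 346 and 369 in stage 4, against 678, 395 and 625 in stage 3 (-0.62 ± 0.43). In these 2 genes the stage 4 libraries lay below the stage 3 libraries.

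The final stage was set against the first, a contrast whose direction the rule leaves free. In stage 5, 55 of the 100 genes were higher than in stage 1 and 8 lower, where 33.4% of all genes tested were called higher and 44.8% lower. The median log2 change was 1.26 in the group and -0.30 in all genes tested. The groups did not overlap in 64 genes that were higher (33.4% of all genes) and 8 that were lower (45.5%). With equal total reads 25 genes were called higher and 34 lower, where 12% of all genes tested were called higher and 72.6% lower. The medians were then 0.01 in the group and -1.54 in all genes. The direction against stage 1 thus depended on the scaling. The group median stood 1.56 above that of all genes as deposited and 1.55 above it with equal total reads, a difference that scaling whole libraries can hardly move. After quantile normalization 70 of the 100 genes were called higher in stage 5 than in stage 1 and 7 lower. Of all genes tested, 37.9% were then called higher and 36.5% lower.

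Ro04_G02653 had the largest rise, with 2331, 1631 and 714 normalised counts in stage 5, against 5.74, 20.8 and 13.6 in stage 1 (log2 change 6.76 ± 0.85 SE, limma adjusted p 7.29e-06). Its peak was higher still, at 2879, 4596 and 3770.3 in stage 3 and 5442 and 5841 in stage 4. Ro02_G00589 had 543, 829 and 851 in stage 5, against 2.87, 8.91 and 9.60 in stage 1, which are 9, 6 and 29 reads (6.62 ± 0.89, adjusted p 1.42e-05). Neither gene returned to its first level, and no library of stage 5 came near those of stage 1.

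The largest falls were smaller. Ro02_G04086 had 115, 141 and 90.1 normalised counts in stage 5, against 317, 328 and 509 in stage 1 (log2 change -1.72 ± 0.46 SE, limma adjusted p 0.00386). Its stage 3 libraries held 951, 830.0 and 1078 and its stage 4 libraries 1147 and 1501. It was thus low in stage 2, as given above, high in stages 3 and 4 and low again. Ro03_G32095 had 9.79, 22.1 and 14.8 in stage 5, against 34.4, 52.0 and 42.4 in stage 1 (-1.46 ± 0.38, adjusted p 0.00327). After quantile normalization its change was 0.49 and it was not called.

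**Figure D5:**
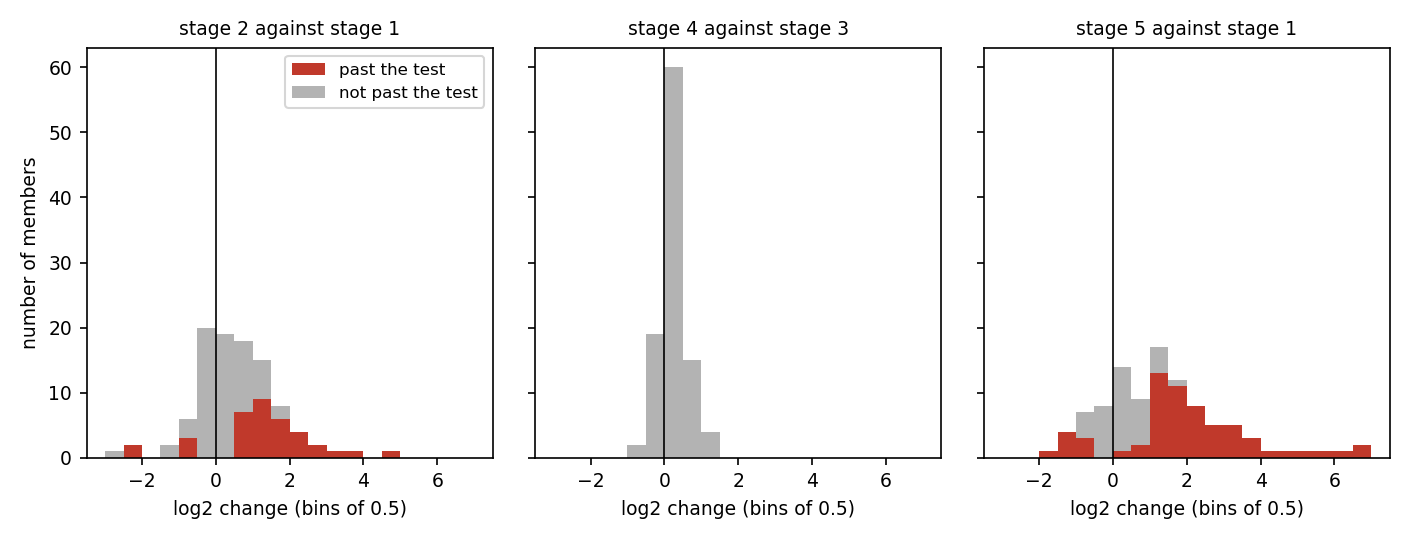
Log2 changes of the 100 genes for stage 2 against stage 1, stage 4 against stage 3 and stage 5 against stage 1, in bins of 0.5, with genes at a limma adjusted p below 0.05 in red and the rest in grey. The changes of stage 4 against stage 3 reach 1.35 with 0 genes in red, while those of stage 5 against stage 1 reach 6.76 and have 55 red genes above 0.

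Replicate spread within the group was largest in stage 2. The coefficient of variation (SD over mean) had a median of 49.1% in stage 2 and of 16.1% (stage 4, n = 2) to 23.0% (stage 5) in the others, and stage 2 had the widest of a gene's 5 values in 75 of the genes. In stage 3, replicate 2 was the lowest of the 3 libraries in 53 genes (36.1% of all genes tested) and the highest in 37 (35%). Replicate 1 was the lowest in 39 (28.6%) and the highest in 45 (33.2%). Replicate 3 was the lowest in 8 (30.2%) and the highest in 18 (29.4%), so it mostly lay between the others.

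Genes most like the group's shape were sought among the 10445 others at the same level, by Pearson's r over the 5 stage means with the mean standardised profile of the group. The 5 points of each gene share libraries and depth with those of the group, so r is a description. Ro05_G15607 came first (r = 0.999), with stage means of 476, 527, 676, 697 and 549 normalised counts, and Ro04_G36261 next (r = 0.997), with 303, 357, 789, 851 and 453. Both have the shape at a smaller size, with scores of 0.29 and 0.79. Members had r from 0.703 to 0.996 with a median of 0.955, which 128 of the other genes reached.

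The identifiers carry 1 of 7 prefixes, Ro01 to Ro07, followed by a running number; what they stand for is not given in the sources used here. Members made up 0.757% of the tested genes with prefix Ro02 (22 genes) and 0.249% of those with prefix Ro06 (9 genes), and 0.446% to 0.66% with the other prefixes. In 28 of the 100 genes another member had the same prefix and a number within 50, while 16.6% of the 19134 other tested genes had a member that close. The 4 identifiers Ro04_G02626, Ro04_G02635, Ro04_G02649 and Ro04_G02653, named after this count was seen, fell within 27 numbers. Their pairwise Pearson's r over the 14 libraries was 0.749 to 0.934. The gene of highest score, Ro02_G25563, stood next in number to another member, Ro02_G25562 (r = 0.942). These correlations are among genes chosen for 1 profile, so they describe it. Whether such genes are near-identical copies between which reads could be split was not tested.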

How the data were processed

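Poly(A) RNA of fruit with an RNA integrity number of at least 8 was made into stranded libraries, per the labels' protocols. The submitters' processing notes name Trimmomatic, HISAT2 and DESeq2. Not given in the sources used here are their versions and roles, the read counter, genome build and annotation. The deposited values are a normalised signal in which 1 read has 1 fixed value per library. Dividing by that value gave a whole number (tolerance 0.01 read) for 100% of values above 0, so whole reads and size factors were recovered. Size factors ran from 0.362 to 3.14. Replicate pairs differed by a mean chi-square per gene of 11.3 to 127, so none was a duplicate. No library was left out.

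The members, lists and tests were chosen with earlier results of these data known. Genes with at least 10 normalised counts in at least 2 libraries (19234) were tested with limma 3.58.1 (R 4.3.3) on the scale log2 (normalised count + 1). A single model held all 14 libraries, and the prior variance followed a trend on expression. P-values were two-sided, adjusted by the Benjamini-Hochberg method over all genes tested, with calls below 0.05. The TH and YH comparison added a term for the letters beside stage. The procedure was also run on simulated counts, but the outcome is not given here and nothing above rests on it. How small a difference each comparison could detect is therefore not stated. Recovered reads were also tested with edgeR 4.0.16 and with DESeq2 1.42.0 as alternatives, beside other pseudocounts, filters, scalings, blocks and left-out libraries. Genes named are the 2 highest scores, the 2 highest stage 4 means, those at the edge, the 2 most like the profile, and up to 2 rises and 2 falls per comparison, past the test and without overlap where any were, otherwise the largest. Of the rises and falls between TH and YH libraries, the larger of each is given in the text above and the others below. Same-numbered libraries of stages 1 and 2 deviated together (r 0.39, 0.24 and 0.24), where differently numbered libraries gave r of -0.37 to 0.13. For the other comparisons the r of same-numbered libraries did not all exceed 0.1. The titles do not say what equal numbers share across stages, and the main fit used no pairing.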

Additional observations from a re-analysis of the deposited data

How the results depend on the processing

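With equal total reads the rule chose 52 of the 100 genes again, and 60 rather than 91 had every stage 3 and 4 library above the others. Under the other settings it chose 75 (quantile normalization) to 99 (a pseudocount of 1). Genes called lower in stage 5 than stage 4 numbered 44 to 71 when single libraries were left out. For the other comparisons the totals of called genes stayed within 1.5 times their values, but their split did not. With equal total reads 25 rose (12% of all genes tested) and 34 fell (72.6%) in stage 5 against stage 1. As deposited, 55 rose (33.4%) and 8 fell (44.8%). Falls in stage 2 against stage 1 numbered 5 as deposited (24.3% of all genes tested) and 13 after that scaling (33.7%). They numbered 3 when the prior variance was flat (23.8%) and 2 with only these stages fitted (27%). With single libraries left out they numbered 1 to 15 (20.9% to 22.4%). A replicate block gave 33 genes higher and 5 lower in stage 2 than stage 1 and moved no count of calls by over 1.5 times. With this block of title numbers, Ro04_G20692 and Ro04_G36346, the largest rises in TH against YH libraries, turned to -0.27 and -0.15. The group's median in that comparison turned to -0.32. With single libraries left out the largest falls ran from -1.83 to 0.22 (Ro02_G36049) and -1.18 to 0.14 (Ro02_G36052), turning without stage 3 replicate 1. Ro03_G32095 turned to 0.49 for stage 5 against stage 1 after quantile normalization. The causes were not tested. Depth limits low levels most in stage 5 replicate 2, where 1 read was worth 2.76 normalised counts.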

Other observations

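The 53 genes in which stage 3 replicate 2 was the lowest stage 3 library, sorted out after the values were seen, are given here with their values in other libraries. In them replicate 2 stood at a median of 0.6055 of the mean of its stage mates. Stage 4 replicate 2 lay above replicate 1 in 49 of the 53 (53.6% of all genes tested), and stage 5 replicate 3 was the highest of its stage in 32 (32.3%). The median fold of stage 2 replicate 2 over its stage mates was 3.19. In the 37 genes in which stage 3 replicate 2 was the highest, stage 4 replicate 2 lay above replicate 1 in 16, stage 5 replicate 3 was the highest in 9, and the fold in stage 2 was 1.985. In the 10 genes in which it lay between its mates these values were 6, 2 and a fold of 2.055. All 9 genes whose stages overlapped were among the 53, as they had to be, since stage 3 replicate 2 was their low library. The split was made on these data, so no test was run on it.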
